A study of Homo sapiens with 39 samples.

Results

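The genes described here are 8 cell surface proteins used or tested as therapy targets in prostate cancer, FOLH1, STEAP1, STEAP2, STEAP4, PSCA, CD276, SLC45A3 and TRPM8. They were chosen by name from a table of 63187 genes, and all 8 passed the filter on low counts in every fit. RNA was measured in C4-2B, a castration-resistant derivative of the LNCaP prostate cancer cell line, grown in medium with whole serum, in 39 libraries of 13 groups with 3 libraries each. In the panel (21 libraries), cells were treated for 5 days with DMSO, the vehicle, with abiraterone at 5 µM, enzalutamide at 20 µM, olaparib at 1 µM or talazoparib at 10 nM, or with abiraterone plus olaparib or enzalutamide plus talazoparib at those doses. In the time course (18 libraries), cells received DMSO, olaparib at 1 µM or olaparib at 5 µM for 1 day or 5 days. Abiraterone blocks androgen synthesis and enzalutamide blocks the response to androgen, and this class of drugs is abbreviated ARPi. Olaparib and talazoparib inhibit the DNA repair enzyme PARP (PARPi). All groups are a single cell line, and within the panel each drug was used at 1 dose.

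Total counts per library lay between 26932205 and 49833473, with a median of 37223200. Levels in CPM are counts scaled by library total and by the factors of edgeR's TMM method. All 8 luminal prostate markers were expressed, with summed levels of 2184 to 4523 CPM in the panel, lowest with enzalutamide and highest with olaparib. In the time course the sum was 2858 to 4704 CPM, lowest at 5 µM and day 1 and highest at 5 µM and day 5. Among markers of other cells, 4 of 5 fibroblast genes and 3 of 4 endothelial genes were at 1 CPM or less in every library, and so were 4 of 6 neuroendocrine genes, among them CHGA, CHGB and INSM1. The fibroblast sum, mostly COL1A1, ranged from 10.6 to 22.9 CPM in the panel, lowest with DMSO and highest with abiraterone plus olaparib, and from 11.7 to 17.2 CPM in the time course. The endothelial sum, mostly VWF, ranged from 11.6 to 22.7 CPM in the panel, lowest with enzalutamide and highest with abiraterone plus olaparib, and from 7.74 to 15.2 CPM in the time course. The summed neuroendocrine level ranged from 3.81 to 18.1 CPM in the panel and was highest with enzalutamide, mostly ENO2, while the immune sum, mostly CD68, ranged from 2.97 to 15.98 CPM in the panel (highest with olaparib) and from 4.97 to 30.1 CPM in the time course (highest with olaparib at 5 µM and day 5). Of the immune markers, 3 of 5 were at 1 CPM or less in the panel and 4 of 5 in the time course. Of the basal markers, 3 of 5 and 2 of 5 were, and their sum, mostly DST, ranged from 16.8 to 26.4 CPM (lowest with olaparib, highest with enzalutamide) and from 13.2 to 22.5 CPM (lowest at 5 µM and day 5, highest with DMSO at day 1). The part of these markers in the results was not tested. A chi-square test of gene counts gave 2.11 to 5.63 per degree of freedom in the 39 pairs of replicates, where 1 is sampling noise, so no library was counted as a repeat of another. The labels do not say whether replicates were separate cultures, and p-values measure the spread between these libraries only.

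FOLH1 encodes prostate-specific membrane antigen, a carboxypeptidase that is the target of radioligand imaging and therapy. STEAP2 and STEAP4 are membrane metalloreductases, and their relative STEAP1 is a target of antibodies and T cell engagers. PSCA is a small protein held on the membrane by a lipid anchor, and CD276 (B7-H3) is a member of the B7 family of immune ligands. SLC45A3, also called prostein, is a prostate-restricted transporter of the plasma membrane, and TRPM8 is a cation channel opened by cold and menthol. Several of them are induced by androgen, while FOLH1 is known to be held down by androgen in prostate cancer cells. RNA levels alone were measured here, not protein on the surface.

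Compared per transcript length, in TPM (counts per base of the canonical transcript, scaled to the same total in each library), FOLH1 was the highest of the 8 in panel DMSO at 407 ± 6.43 TPM (SD, n = 3). STEAP1 followed at 345 ± 9.22 TPM, STEAP2 at 239 ± 3.94 TPM and SLC45A3 at 191 ± 5.09 TPM. CD276 stood at 50.9 ± 0.36 TPM and PSCA at 48.4 ± 1.93 TPM, and their libraries overlapped. TRPM8 was at 9.21 ± 0.36 TPM and STEAP4 at 2.48 ± 0.10 TPM. With the summed length of all exons, an alternative chosen after seeing the data, the order was the same. Both measures used whole lengths, without a correction for fragment size. The canonical transcript is 4110 bases long for FOLH1 and 1219 bases for STEAP1, and the part of such a correction in their order was not tested. With enzalutamide, SLC45A3 stood at 10.4 TPM, below PSCA at 21.7 TPM, and the highest, FOLH1, stood at 537 TPM. With olaparib for 5 days STEAP1 was the highest, at 332.5 TPM against 324.1 TPM for FOLH1 in the panel, 323.5 against 306.6 TPM at 1 µM in the time course and 319.8 against 279.9 TPM at 5 µM, with no overlap between libraries. The rest of the levels are again CPM scaled by edgeR's TMM method, which compare a gene between libraries and not genes with each other.

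**Figure D1:**
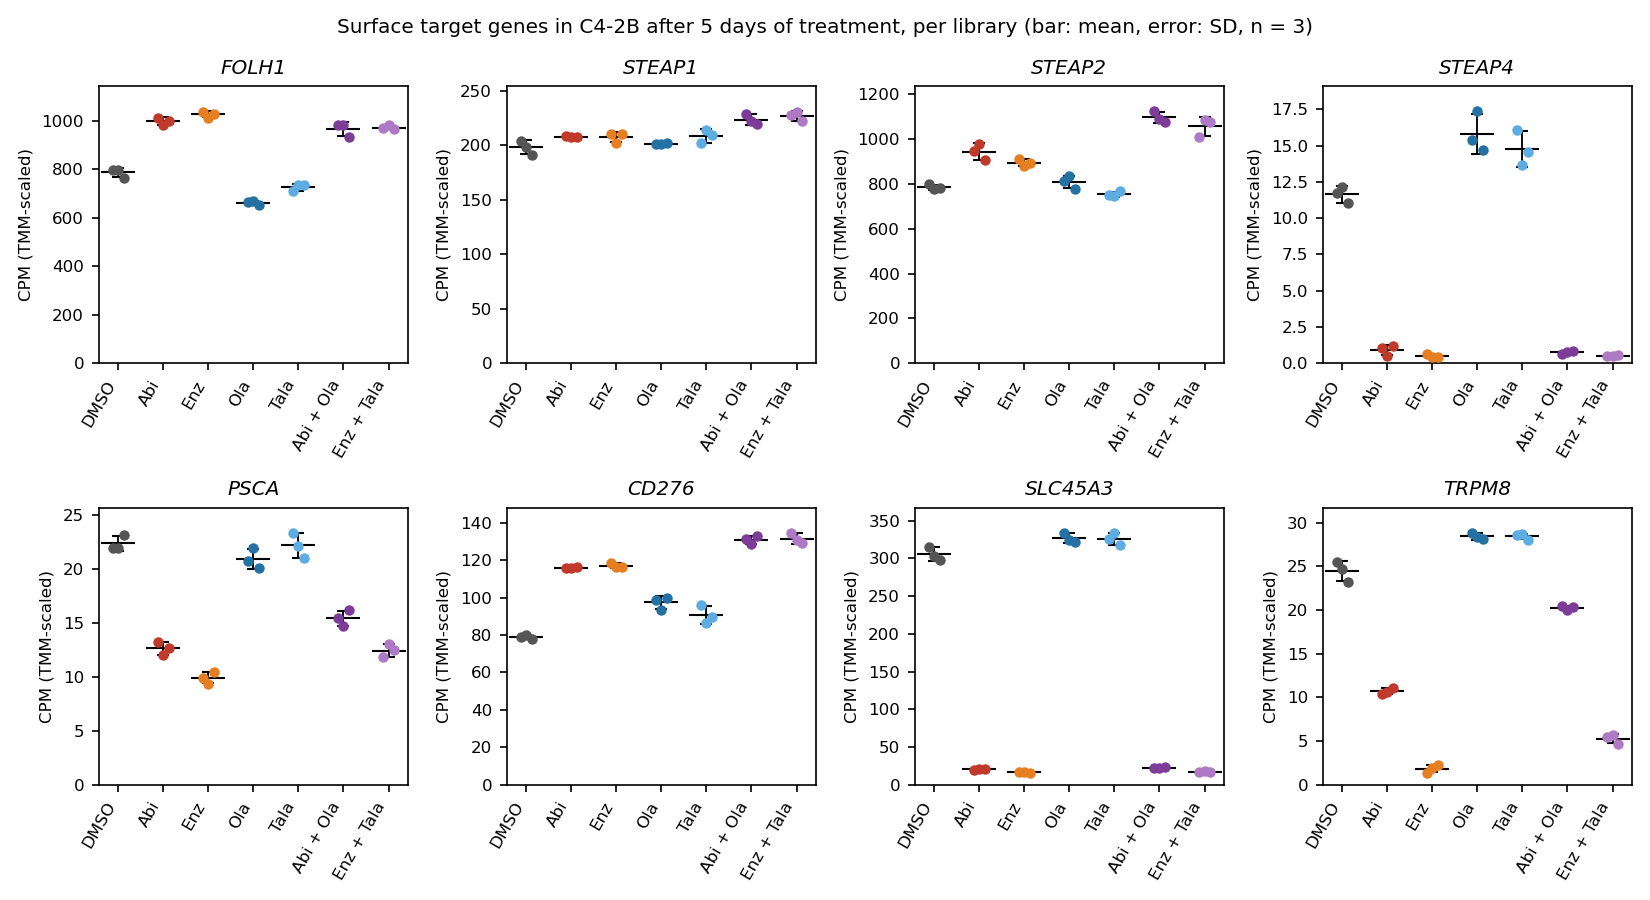
Level of each gene (CPM, linear axis from 0) in the 3 libraries of each group of the 5-day panel, with the mean and SD. SLC45A3 was at 15 to 23 CPM in all 12 libraries with an ARPi and at 297 CPM or more in the other 9, while CD276 was higher in all 18 treated libraries than in the 3 with DMSO.

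The first question was what each ARPi did to these genes. Against DMSO, all 8 were past the threshold (adjusted p under 0.05, edgeR quasi-likelihood test) with abiraterone, 4 higher and 4 lower, where 52.9% of all genes tested were called (25.8% higher and 27.1% lower). With enzalutamide the same 4 rose and the same 4 fell, against 53.3% of all genes (27% higher and 26.3% lower). SLC45A3, STEAP4, TRPM8 and PSCA fell, and CD276, FOLH1, STEAP2 and STEAP1 rose. In bulk RNA, fewer cells that express a gene and less RNA per cell cannot be told apart. All treatments of the panel were set against the same 3 DMSO libraries.

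SLC45A3 (ENSG00000158715.6, GRCh38 chr1:205657851-205680509, minus strand) had the lowest p of the 8 with either drug. Its DMSO libraries held 315, 303 and 297 CPM, those with abiraterone 19.9, 21.4 and 20.5 CPM, and those with enzalutamide 16.7, 17.3 and 14.9 CPM. The groups were far apart, and enzalutamide lay below abiraterone in every library. The log2 fold change was -3.89 ± 0.041 (SE) with abiraterone, a 14.8-fold fall (adjusted p = 1.31e-38), and -4.23 ± 0.042 with enzalutamide, an 18.7-fold fall (adjusted p = 1.92e-39).

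STEAP4 (ENSG00000127954.13, chr7:88270892-88306894, minus strand), the least expressed of the 8, fell to few counts. Its 3 DMSO libraries held 345, 418 and 436 counts (11.7, 12.2 and 11.04 CPM), the abiraterone libraries 36, 16 and 39 counts, and the enzalutamide libraries 20, 18 and 18 counts. Every treated library was thus under 1.3 CPM. The log2 fold change was -3.65 ± 0.15 with abiraterone (adjusted p = 8.75e-21) and -4.55 ± 0.17 with enzalutamide (adjusted p = 1.35e-22), a 12.6-fold and a 23.5-fold fall. STEAP2, of the same family, moved the other way, and STEAP1, also of that family, barely moved.

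TRPM8 (ENSG00000144481.17, chr2:233917373-234019522, plus strand) was the gene for which the ARPi differed most. DMSO libraries held 25.4, 24.7 and 23.3 CPM, abiraterone libraries 10.4, 10.7 and 11.1 CPM, and enzalutamide libraries 1.37, 1.91 and 2.20 CPM. The 3 groups did not overlap. The fall was 2.28-fold with abiraterone (log2 fold change -1.19 ± 0.069, adjusted p = 9.37e-17) and 13.1-fold with enzalutamide (-3.71 ± 0.089, adjusted p = 5.87e-28).

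PSCA (ENSG00000167653.5, chr8:142670308-142682725, plus strand) went from 22.0, 21.9 and 23.2 CPM with DMSO to 13.3, 12.1 and 12.7 CPM with abiraterone and 9.94, 9.39 and 10.5 CPM with enzalutamide. Here too the groups were apart, with smaller falls from DMSO than for the other genes that fell. The log2 fold change was -0.82 ± 0.064 with abiraterone (adjusted p = 2.63e-13) and -1.17 ± 0.065 with enzalutamide (adjusted p = 2.27e-17).

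FOLH1 (ENSG00000086205.18, chr11:49145092-49208638, minus strand), the most abundant of the 8 in DMSO, rose. It stood at 797, 798 and 766 CPM with DMSO, at 1013, 981 and 999.9 CPM with abiraterone and at 1038, 1013 and 1030 CPM with enzalutamide. All treated libraries were above all DMSO libraries. The rise was 1.27-fold with abiraterone (log2 fold change 0.34 ± 0.023, adjusted p = 5.63e-15) and 1.30-fold with enzalutamide (0.38 ± 0.023, adjusted p = 2.4e-16).

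CD276 (ENSG00000103855.18, chr15:73683966-73714514, plus strand), the B7 family ligand, rose most. Its DMSO libraries held 79.2, 79.9 and 77.7 CPM, against 116.1, 115.6 and 116.3 CPM with abiraterone and 118.7, 116.2 and 116.5 CPM with enzalutamide. The ARPi libraries lay close together and well above DMSO, with 1.47-fold and 1.48-fold rises (log2 fold changes 0.56 ± 0.034 and 0.57 ± 0.034, adjusted p = 3.41e-16 and 1.42e-16).

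STEAP2 (ENSG00000157214.14, chr7:90167590-90238137, plus strand) rose 1.20-fold with abiraterone (0.27 ± 0.029, adjusted p = 2.19e-09) and 1.14-fold with enzalutamide (0.19 ± 0.029, adjusted p = 1.44e-06). It went from 798, 775 and 781 CPM to 946, 979 and 907 CPM with abiraterone and 910, 877 and 895 CPM with enzalutamide. STEAP1 (ENSG00000164647.9, chr7:90154456-90164829, plus strand), its neighbor on the chromosome, barely moved: 204, 199 and 192 CPM with DMSO, 209, 207 and 208 CPM with abiraterone and 211, 202 and 210 CPM with enzalutamide. The enzalutamide libraries of STEAP1 overlapped DMSO. Its log2 fold changes of 0.07 ± 0.028 (adjusted p = 0.0329 and 0.0374) were each lost when any one of 4 of the 6 libraries compared was left out. Without DMSO replicate 3 they were 0.044 (adjusted p = 0.235) and 0.042 (adjusted p = 0.256).

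**Figure D2:**
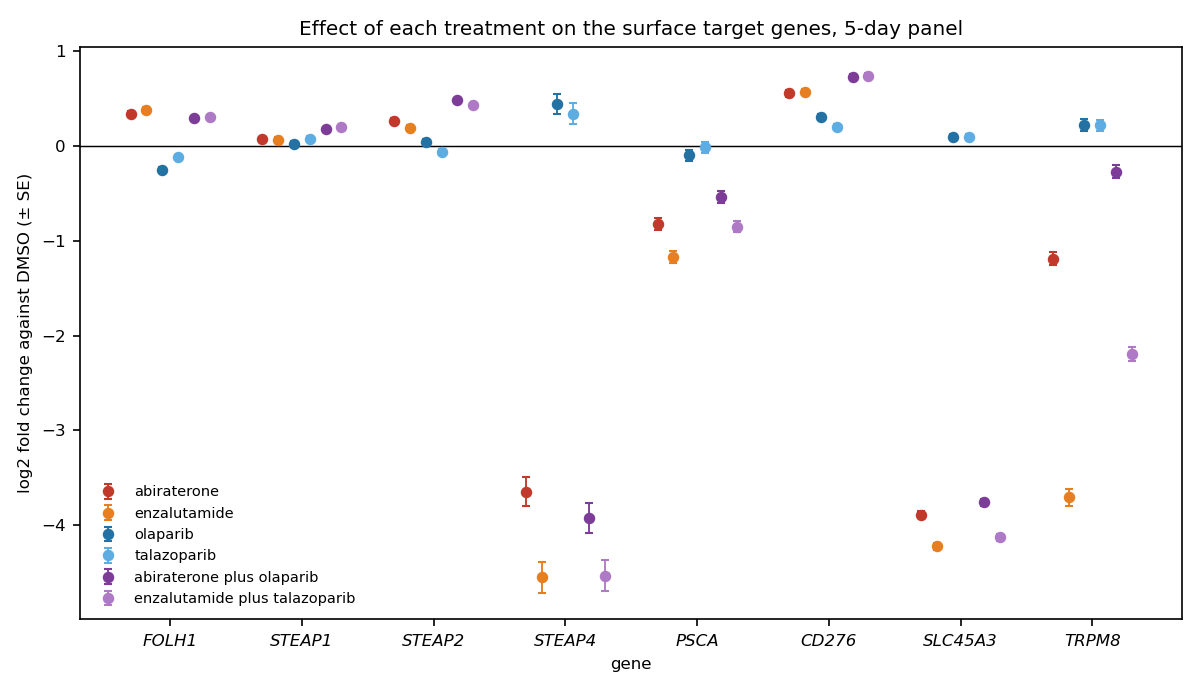
Log2 fold change against DMSO (± SE) of each gene under the 6 treatments of the panel. With an ARPi alone or in a combination, SLC45A3, STEAP4, PSCA and TRPM8 lay below 0 and FOLH1, STEAP2 and CD276 above it, and the points of STEAP1 lay between 0.02 and 0.20 throughout.

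As references, the androgen-induced genes KLK3, TMPRSS2 and FKBP5 had log2 fold changes of -1.58, -2.45 and -2.70 with abiraterone, all past the threshold. With enzalutamide they were at -2.25, -2.80 and -2.81. SLC45A3 and STEAP4 had log2 fold changes below those of these 3 genes with either drug.

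The RNA of SLC45A3, STEAP4 and TRPM8 fell furthest, so the 250 bases before their start sites are shown, from RefSeq on GRCh38.p14, read 5′ to 3′ on the gene's strand. Entries were found for 6 of the 8 genes, and TRPM8 has 6 starts, of which the first is given. Capitals mark a GC box (GGGCGG or CCGCCC) or a TATA box (TATAAA or TTTATA), searched on both strands.
SLC45A3, chr1:205680510-205680759, minus strand: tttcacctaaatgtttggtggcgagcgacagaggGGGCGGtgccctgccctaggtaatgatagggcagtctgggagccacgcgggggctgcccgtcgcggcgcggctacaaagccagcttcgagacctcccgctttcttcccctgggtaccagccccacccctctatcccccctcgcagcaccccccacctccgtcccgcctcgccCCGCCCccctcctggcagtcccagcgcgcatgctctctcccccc
STEAP4, chr7:88306895-88307144, minus strand: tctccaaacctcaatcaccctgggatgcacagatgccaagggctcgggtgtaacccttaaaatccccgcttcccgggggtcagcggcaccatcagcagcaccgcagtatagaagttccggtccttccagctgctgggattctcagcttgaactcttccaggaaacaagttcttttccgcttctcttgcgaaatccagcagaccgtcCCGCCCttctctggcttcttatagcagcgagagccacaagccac
TRPM8, chr2:233917123-233917372, plus strand: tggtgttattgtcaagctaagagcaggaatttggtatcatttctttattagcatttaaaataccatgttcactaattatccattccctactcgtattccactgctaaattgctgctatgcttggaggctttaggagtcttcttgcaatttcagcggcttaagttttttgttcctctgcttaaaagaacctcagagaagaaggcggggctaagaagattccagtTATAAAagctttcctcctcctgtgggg

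SLC45A3 held 2 GC boxes in this window and STEAP4 held 1, a motif found in 42.6% of 35116 promoter windows of this length. The window of TRPM8 held 1 TATA box, found in 10.7% of them, and no GC box. None of the 3 windows held a single arm of the androgen response element, the DNA motif of androgen signaling (AGAACA or TGTTCT), which 12.4% of promoter windows held. Of the other 5 TRPM8 starts, the last (chr2:233979899-233980148) held 1 such arm and 1 E-box (CACGTG). None of the 3 windows shown held the FOXA1 core motif (TGTTTAC or GTAAACA) or the E-box, which 2.98% and 6.34% held. These are matches of letters in a short window only.

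The ARPi were also compared with each other directly, at the single dose used of each. Enzalutamide was lower than abiraterone for 4 of the 8 genes and higher for none, where 19.8% of all genes were called (9.78% higher and 10.1% lower). TRPM8 stood out with a log2 fold change of -2.52 ± 0.099 (5.72-fold lower, adjusted p = 1.02e-19). STEAP4 was lower at -0.90 ± 0.24 (adjusted p = 0.00531, but 0.0762 without abiraterone replicate 3, where the difference was -0.67, and 0.0624 in a fit of only these groups). PSCA was lower at -0.35 ± 0.069 (adjusted p = 2.37e-04) and SLC45A3 at -0.34 ± 0.050 (adjusted p = 4.21e-06). For FOLH1, CD276 and STEAP1 no difference was called, and the 95% intervals were narrow. The interval ran from -0.0041 to 0.086 for FOLH1, from -0.051 to 0.078 for CD276 and from -0.056 to 0.052 for STEAP1. STEAP2 stood at -0.08 ± 0.029 (95% interval -0.13 to -0.022), just outside the threshold (adjusted p = 0.0517), and was called lower with DESeq2 (adjusted p = 0.0224), RLE scaling (0.0245), total counts (0.018), a filter of 1 CPM in 3 libraries (0.0199), a fit of only these groups (0.0242) and without abiraterone replicate 3 (0.00955).

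The next question was what a PARPi alone did. Olaparib at 1 µM moved 5 of the 8 genes past the threshold, 4 higher and 1 lower, where 35.6% of all genes were called (19.6% higher and 16% lower). Talazoparib at 10 nM moved 6, 5 higher and 1 lower, where 33.8% were called (18.4% higher and 15.4% lower). Without DMSO replicate 3 it moved 3. All changes were under 0.5 on the log2 scale. FOLH1 fell, which is opposite in sign to its change with ARPi. Its olaparib libraries held 664, 669 and 653 CPM and its talazoparib libraries 710, 735 and 735 CPM, all below DMSO. The log2 fold change was -0.25 ± 0.023 with olaparib (adjusted p = 8.6e-11) and -0.12 ± 0.023 with talazoparib (adjusted p = 1.44e-04).

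CD276 rose with both PARPi, to 98.8, 93.6 and 100 CPM with olaparib and 95.9, 86.3 and 89.8 CPM with talazoparib. The log2 fold changes were 0.31 ± 0.034 (adjusted p = 4.82e-09) and 0.20 ± 0.034 (adjusted p = 1.37e-05). Of the 8 genes, only CD276 was called higher under all 6 treatments of the panel, the combinations included. STEAP4 rose to 15.4, 17.4 and 14.7 CPM with olaparib and 16.1, 13.7 and 14.5 CPM with talazoparib, where DMSO held 11.04 to 12.2 CPM. Its log2 fold changes were 0.44 ± 0.11 (adjusted p = 0.00144) and 0.34 ± 0.11 (adjusted p = 0.0142). The talazoparib call of STEAP4 was lost without DMSO replicate 3 (0.30, adjusted p = 0.0692) or talazoparib replicate 1 (0.26, adjusted p = 0.113).

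TRPM8 rose 1.16-fold with either drug, to 28.9, 28.4 and 28.1 CPM with olaparib and 28.5, 28.7 and 28.0 CPM with talazoparib (0.22 ± 0.062, adjusted p = 0.00499, and 0.22 ± 0.062, adjusted p = 0.0054). SLC45A3 was 1.07-fold higher with either (0.10 ± 0.032, adjusted p = 0.0171, and 0.09 ± 0.032, adjusted p = 0.0234). These calls of SLC45A3 were lost in 5 and 4 of 6 omissions of a library, with values down to 0.065 and 0.060, and with scaling to total counts, at 0.056 and 0.048. STEAP1 was called with talazoparib only (0.08 ± 0.028, adjusted p = 0.0328). That call was lost in 4 of 6 omissions, with a value of 0.042 without talazoparib replicate 2, and with scaling to total counts (0.029). PSCA was past the threshold with neither, at -0.10 ± 0.060 and -0.01 ± 0.059, nor was STEAP2, at 0.04 ± 0.029 and -0.06 ± 0.029. STEAP2 was, however, called lower with talazoparib on scaling to total counts (-0.11, adjusted p = 0.00447), with a filter of 1 CPM in 3 libraries (adjusted p = 0.0469) and without talazoparib replicate 3 (adjusted p = 0.0409).

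Among the reference genes, the p53 target CDKN1A had log2 fold changes of 2.18 with olaparib and 1.98 with talazoparib, TMPRSS2 0.73 and 0.77, KLK3 0.18 and 0.21, and FKBP5 0.40 and 0.35. Talazoparib was then set directly against olaparib, and 3 of the 8 genes were called, where 8.36% of all genes were (3.11% higher and 5.25% lower). Leaving out 1 library took the count of called members to as low as 1. FOLH1 was higher with talazoparib (0.13 ± 0.023, adjusted p = 3.24e-04). CD276 (-0.11 ± 0.033, adjusted p = 0.0431) and STEAP2 (-0.10 ± 0.029, adjusted p = 0.0224) were lower, and each of these was lost in 4 of 6 omissions of a library. CD276 stood at -0.069 without talazoparib replicate 2 (adjusted p = 0.334). The 95% interval of the difference ran from -0.12 to 0.12 for TRPM8, from -0.067 to 0.059 for SLC45A3 and from -0.31 to 0.11 for STEAP4.

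The combinations moved all 8 genes past the threshold against DMSO, in the same direction as the ARPi alone, 4 higher and 4 lower each. With olaparib and abiraterone together 62.2% of all genes were called (31.1% higher and 31.1% lower), and with talazoparib and enzalutamide together 62.4% were (31.2% higher and 31.3% lower). CD276 reached its highest panel level, with 131.3, 128.5 and 132.8 CPM and 134.7, 130.7 and 129.1 CPM (log2 fold changes 0.73 ± 0.034 and 0.74 ± 0.033, adjusted p = 8.78e-20 and 4.81e-20). STEAP2 did too, at 1124, 1088 and 1078 CPM and 1009, 1085 and 1077 CPM (0.48 ± 0.029 and 0.43 ± 0.029, adjusted p = 1.52e-15 and 2.63e-14). FOLH1 stood at 983, 985 and 934 CPM and 971, 981 and 965 CPM, 1.23-fold and 1.24-fold above DMSO. STEAP1 was at 229, 223 and 219 CPM and 228, 231 and 222 CPM, above every DMSO library (0.18 ± 0.028 and 0.20 ± 0.028, adjusted p = 1.27e-06 and 1.25e-07).

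SLC45A3 stayed low in the combinations, at 22.8, 22.0 and 22.9 CPM and 17.1, 18.3 and 16.8 CPM, 13.6-fold and 17.5-fold below DMSO. STEAP4 held 20, 31 and 23 counts and 24, 20 and 19 counts, 15.2-fold and 23.2-fold below DMSO. PSCA was at 15.4, 14.8 and 16.2 CPM and 11.8, 13.01 and 12.5 CPM (-0.54 ± 0.063 and -0.85 ± 0.062, adjusted p = 2.69e-09 and 3.47e-14). TRPM8 was the gene in which the combinations departed most from the ARPi. With abiraterone plus olaparib it was at 20.5, 20.0 and 20.3 CPM, above all abiraterone libraries and below all DMSO libraries. With enzalutamide plus talazoparib it was at 5.46, 5.73 and 4.68 CPM, between enzalutamide and DMSO.

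Adding olaparib to abiraterone raised 6 of the 8 genes and lowered none, where 29.2% of all genes were called (14.4% higher and 14.7% lower). TRPM8 rose 1.89-fold (0.92 ± 0.071, adjusted p = 1.82e-12). PSCA rose by 0.28 ± 0.067 (adjusted p = 0.00126), STEAP2 by 0.22 ± 0.029 (adjusted p = 5.56e-07), CD276 by 0.17 ± 0.033 (adjusted p = 9.52e-05) and STEAP1 by 0.11 ± 0.028 (adjusted p = 0.00375). STEAP1 lost its call without combination replicate 1 (0.079, adjusted p = 0.0621). SLC45A3 was also called (0.13 ± 0.049, adjusted p = 0.0451), but not with DESeq2 (adjusted p = 0.0549) or in 4 of 6 omissions of a library. FOLH1 was at -0.05 ± 0.023 (adjusted p = 0.144, but called lower at -0.072 with total counts, adjusted p = 0.0083) and STEAP4 at -0.28 ± 0.22 (adjusted p = 0.393).

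Adding talazoparib to enzalutamide raised 5 genes and lowered 1, where 34.4% of all genes were called (16.5% higher and 17.9% lower). TRPM8 rose 2.85-fold (1.51 ± 0.11, adjusted p = 1.79e-13). PSCA rose by 0.32 ± 0.067, STEAP2 by 0.24 ± 0.029, CD276 by 0.17 ± 0.032 and STEAP1 by 0.13 ± 0.028, with adjusted p from 5.62e-08 to 3.29e-04. FOLH1 fell slightly (-0.08 ± 0.023, adjusted p = 0.00719). This call was lost without combination replicate 3 (-0.058, adjusted p = 0.0975) and with no filter on low counts (-0.071, adjusted p = 0.0854). SLC45A3 (0.09 ± 0.050, but 0.14 with an adjusted p of 0.0482 without enzalutamide replicate 2) and STEAP4 (0.02 ± 0.26) were not called, and the interval of STEAP4 was wide, from -0.48 to 0.52. Set against the PARPi alone, all 8 genes were called in both combinations, 4 higher and 4 lower. Of all genes, 56.6% were called against olaparib (27.3% higher and 29.3% lower) and 58.8% against talazoparib (29.1% higher and 29.7% lower). FOLH1 was 1.46-fold above olaparib and 1.34-fold above talazoparib, and SLC45A3 was 14.5-fold and 18.7-fold below them.

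An interaction term tested whether a combination departed from the sum of its drugs on the log2 scale. For abiraterone and olaparib, 4 of the 8 genes were called, all above the sum, where 12.8% of all genes were called (4.74% above and 8.08% below). For enzalutamide and talazoparib, 3 were called, all above the sum, where 12.6% of all genes were called (5.32% above and 7.28% below). TRPM8 was the largest of those called. Abiraterone and olaparib summed to -0.97 and the combination stood at -0.27, a departure of 0.70 ± 0.094 (adjusted p = 2.47e-06). Enzalutamide and talazoparib summed to -3.49 and the combination stood at -2.20, a departure of 1.29 ± 0.125 (adjusted p = 5.08e-09).

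PSCA departed by 0.38 ± 0.090 (adjusted p = 0.00356) and 0.34 ± 0.090 (adjusted p = 0.00991), although neither PARPi alone moved it past the threshold. STEAP2 departed by 0.17 ± 0.040 (adjusted p = 0.00364) and 0.30 ± 0.040 (adjusted p = 4.12e-06). FOLH1 departed by 0.20 ± 0.033 with abiraterone and olaparib (adjusted p = 4.12e-05) and by 0.04 ± 0.033 with enzalutamide and talazoparib (adjusted p = 0.527). SLC45A3 was close to the sum in both (0.03 ± 0.059 and 0.00 ± 0.058). STEAP4 was at -0.72 ± 0.25 with abiraterone and olaparib (adjusted p = 0.0519, but 0.0367 with DESeq2 and 0.0313 with no filter) on low counts, and at -0.9998 without abiraterone replicate 2 (adjusted p = 0.00271). STEAP1 (0.08 and 0.05) and CD276 (-0.13 and -0.03) were past the threshold in neither. CD276 was called below the sum of abiraterone and olaparib with DESeq2 (adjusted p = 0.0381) and without olaparib replicate 2 (-0.15, adjusted p = 0.0428).

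**Figure D3:**
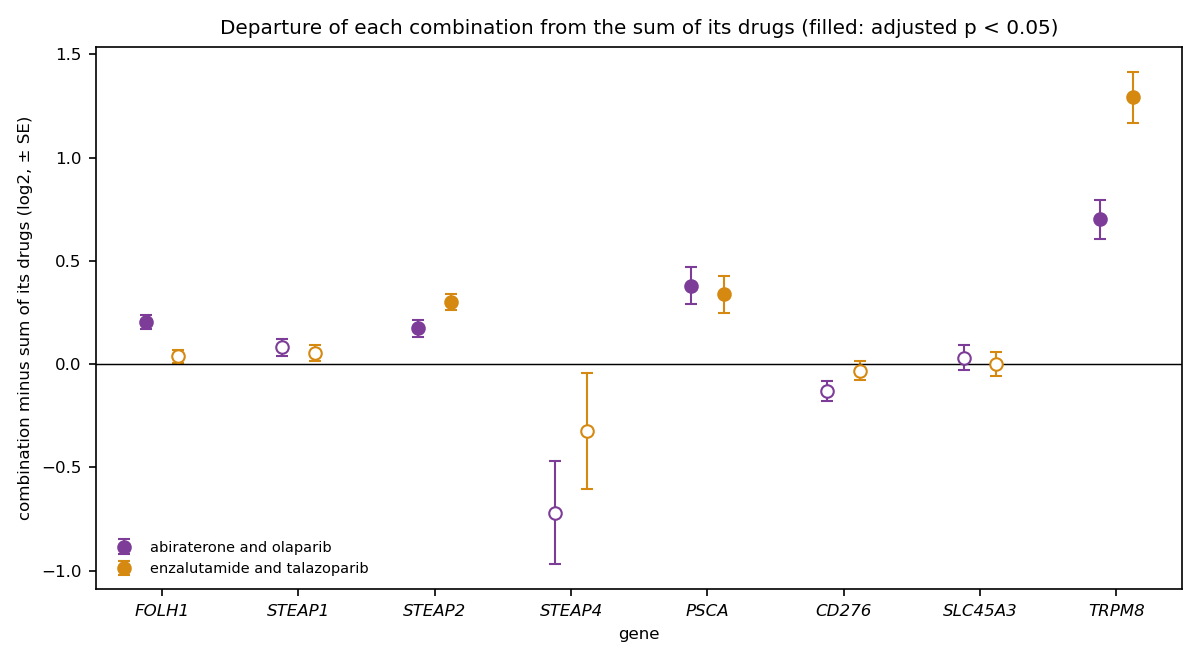
Departure of each combination from the sum of its drugs (log2, ± SE), with filled points past the threshold. TRPM8 lay furthest above 0 in both, at 0.70 and 1.29, and SLC45A3 lay at 0.03 and 0.00.

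In the time course, days passed even without drug, and DMSO at day 5 was first set against DMSO at day 1. Of the 8 genes, 7 were higher at day 5 and none lower, where 24.5% of all genes were called (11.1% higher and 13.4% lower). STEAP4 rose 1.73-fold, from 4.58, 4.10 and 5.56 CPM to 8.46, 8.64 and 7.51 CPM (0.79 ± 0.092, adjusted p = 4.52e-08). PSCA rose by 0.29 ± 0.048, TRPM8 by 0.27 ± 0.047, SLC45A3 by 0.26 ± 0.025, STEAP1 by 0.12 ± 0.025 and FOLH1 by 0.10 ± 0.018, with adjusted p from 3.93e-10 to 3.87e-04. STEAP2 rose by 0.07 ± 0.020 (adjusted p = 0.0104), a call lost without day 5 replicate 2 (0.056, adjusted p = 0.0762). CD276 was at -0.04 ± 0.031 (adjusted p = 0.427). All olaparib effects below are therefore against DMSO of the same day.

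**Figure D4:**
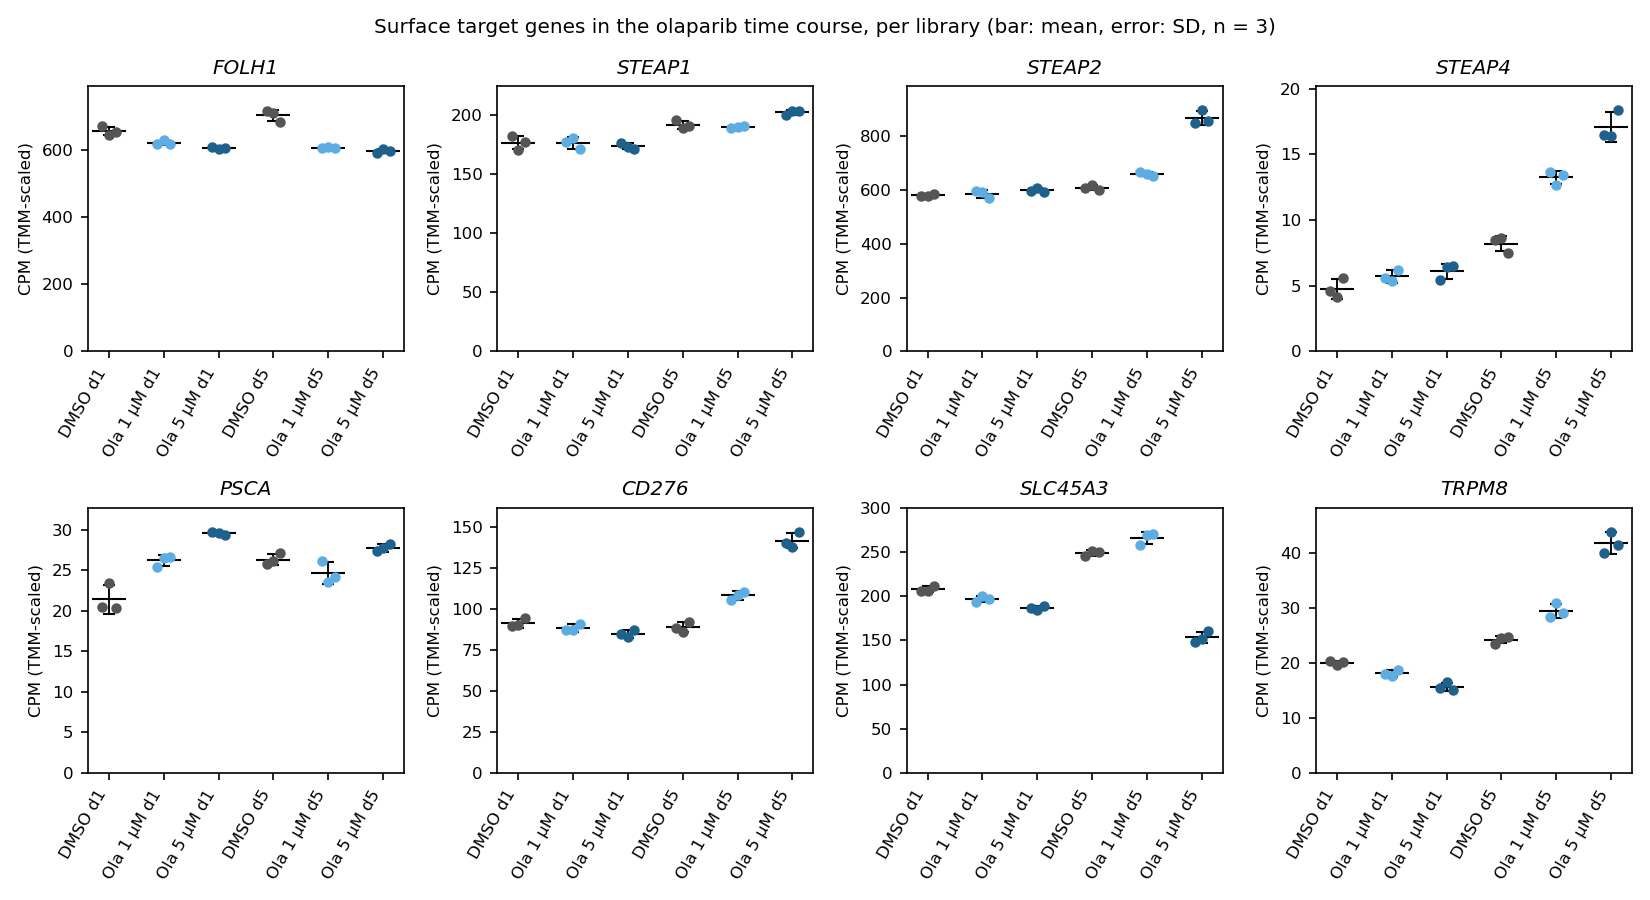
Level of each gene (CPM, linear axis from 0) in the 3 libraries of each group of the time course, with the mean and SD. At day 5 with olaparib at 5 µM, SLC45A3 was at 148 to 160 CPM, below every other library, and TRPM8, at 40 to 44 CPM, was above every other.

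After 1 day, olaparib at 1 µM moved 4 of the 8 genes, 1 higher and 3 lower, where 15.8% of all genes were called (6.3% higher and 9.52% lower). Without 1 µM replicate 1 it moved 2. At 5 µM it moved 6, 2 higher and 4 lower, where 45% were called (21.6% higher and 23.4% lower). PSCA rose with dose, from 20.5, 23.5 and 20.3 CPM with DMSO to 25.5, 26.5 and 26.7 CPM at 1 µM and 29.8, 29.6 and 29.3 CPM at 5 µM. The 3 doses did not overlap, and the log2 fold changes were 0.29 ± 0.048 (adjusted p = 3.56e-05) and 0.46 ± 0.048 (adjusted p = 3.06e-10). TRPM8 fell, from 20.3, 19.7 and 20.3 CPM to 17.96, 17.6 and 18.8 CPM and to 15.5, 16.5 and 15.1 CPM (-0.15 ± 0.049, adjusted p = 0.0324, and -0.36 ± 0.051, adjusted p = 2.74e-07). The 1 µM call of TRPM8 was lost in 4 of 6 omissions of a library, with values from -0.13 to -0.14.

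SLC45A3 fell at both doses (-0.08 ± 0.025, adjusted p = 0.0309, and -0.15 ± 0.025, adjusted p = 3.51e-06), and its 1 µM call was lost in 3 of 6 omissions and with total counts (-0.052, adjusted p = 0.167). FOLH1 fell from 671, 646 and 654 CPM to 617.5, 629 and 617 CPM and to 609, 604 and 605 CPM (-0.08 ± 0.018, adjusted p = 0.00138, and -0.12 ± 0.018, adjusted p = 1.09e-06). CD276 was called lower at 5 µM (-0.11 ± 0.032, adjusted p = 0.00532), a call lost without DMSO replicate 3 (-0.083, adjusted p = 0.0562) and with total counts (-0.059, adjusted p = 0.134). At 1 µM it stood at -0.045 and was not called. STEAP4 rose at 5 µM (0.36 ± 0.097, adjusted p = 0.00231), and at 1 µM it stood at 0.27 ± 0.097 (adjusted p = 0.0578, but 0.0426 with a filter of 1 CPM in 3 libraries, 0.0276 with no filter, 0.0392 with total counts and 0.00765 without DMSO replicate 3). STEAP1 and STEAP2 were not past the threshold at either dose. STEAP2 was, however, called higher at 5 µM with total counts (0.094, adjusted p = 6.44e-05), a filter of 1 CPM in 3 libraries (0.058, adjusted p = 0.00915) and a replicate block (0.045, adjusted p = 0.0499). Between the doses at day 1, 3 genes differed, where 28.8% of all genes were called (12.8% higher and 15.9% lower). PSCA was higher at 5 µM by 0.17 ± 0.046, and TRPM8 and SLC45A3 were lower (-0.21 ± 0.051 and -0.08 ± 0.025). This call of SLC45A3 was lost in 3 of 6 omissions of a library, with values down to -0.066. STEAP2, at 0.029 and not called, was called higher at 5 µM with total counts (0.051, adjusted p = 0.0328).

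After 5 days, olaparib at 1 µM moved 6 of the 8 genes, 5 higher and 1 lower, where 46.3% of all genes were called (23.4% higher and 22.9% lower). At 5 µM it moved 7, 5 higher and 2 lower, where 68.2% were called (34.4% higher and 33.9% lower). STEAP4 rose most, from 8.46, 8.64 and 7.51 CPM to 13.6, 12.7 and 13.4 CPM at 1 µM and 16.4, 16.4 and 18.4 CPM at 5 µM. The rises were 1.61-fold (0.69 ± 0.081, adjusted p = 7.56e-09) and 2.08-fold (1.05 ± 0.079, adjusted p = 4.31e-14). TRPM8 rose from 23.5, 24.6 and 24.8 CPM to 28.4, 30.9 and 29.1 CPM and to 40.0, 43.98 and 41.6 CPM, with no overlap between doses (0.28 ± 0.045, adjusted p = 1.77e-06, and 0.79 ± 0.043, adjusted p = 1.28e-18). CD276 rose from 88.4, 86.2 and 92.0 CPM to 105.4, 108.8 and 110.6 CPM and to 140.2, 137.9 and 147.2 CPM (0.28 ± 0.031, adjusted p = 9.42e-10, and 0.67 ± 0.031, adjusted p = 6.72e-21).

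STEAP2 rose 1.08-fold at 1 µM (0.12 ± 0.020, adjusted p = 6.89e-06) and 1.43-fold at 5 µM (0.51 ± 0.020, adjusted p = 3.59e-23), from 607, 618.1 and 600.3 CPM to 848, 898 and 857 CPM at the higher dose. FOLH1 fell to 607, 609 and 605 CPM and to 592, 603 and 597 CPM, from 716, 709 and 685 CPM (-0.21 ± 0.018, adjusted p = 1.4e-12, and -0.24 ± 0.018, adjusted p = 2.14e-14). The doses differed by -0.02 ± 0.018 for FOLH1, with a 95% interval from -0.058 to 0.012, but with total counts the difference was called at -0.083 (adjusted p = 2.32e-05). SLC45A3 changed sign with the dose. It went from 246, 251 and 250.4 CPM with DMSO to 258, 270.0 and 271 CPM at 1 µM (0.10 ± 0.025, adjusted p = 0.00159) and to 148, 152 and 160.2 CPM at 5 µM (-0.70 ± 0.025, adjusted p = 5.6e-24).

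STEAP1 rose by 0.08 ± 0.025 at 5 µM (adjusted p = 0.0059), but stood at -0.0048 with scaling to total counts. PSCA was past the threshold at neither dose at day 5 (-0.09 ± 0.047, adjusted p = 0.104, and 0.08 ± 0.047, adjusted p = 0.132). The former was called at -0.14 without 1 µM replicate 1 (adjusted p = 0.0269) and at -0.12 with total counts (adjusted p = 0.0452). Between the doses at day 5, 7 of the 8 genes differed, 6 higher at 5 µM and 1 lower, where 53.6% of all genes were called (26.6% higher and 27% lower). SLC45A3 was 1.73-fold lower at 5 µM than at 1 µM (-0.79 ± 0.026, adjusted p = 2.98e-25), and TRPM8 was 1.42-fold, STEAP2 1.32-fold, CD276 1.31-fold and STEAP4 1.29-fold higher. PSCA (1.13-fold) and STEAP1 (1.07-fold) were also higher, the latter not with scaling to total counts (0.03, adjusted p = 0.252).

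The androgen-induced genes used as references were higher at 5 µM and day 5, where SLC45A3 was lower. The log2 fold change was 0.59 for KLK3, 1.71 for TMPRSS2 and 0.46 for FKBP5, all past the threshold. At day 1 and 5 µM, KLK3 was at -0.29, TMPRSS2 at 0.19 and FKBP5 at -0.09. CDKN1A was at 3.71 at day 1 and 4.15 at day 5.

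An interaction term tested whether an olaparib effect differed between day 5 and day 1. At 1 µM, 7 of the 8 genes were called, 5 higher at day 5 and 2 lower, where 29.8% of all genes were (15.6% higher and 14.2% lower). The 1 µM difference of STEAP2 (0.10) was lost with total counts (0.051, adjusted p = 0.147). At 5 µM all 8 were, 5 higher and 3 lower, where 54.9% of all genes were (27.2% higher and 27.7% lower). At 5 µM, TRPM8 moved from a fall to a rise (a difference of 1.14 ± 0.066, adjusted p = 2.49e-17). CD276 differed by 0.78 ± 0.044 (adjusted p = 1.21e-17), from -0.11 at day 1 to a rise at day 5. The day 1 call of CD276 was lost without DMSO replicate 3 (-0.083, adjusted p = 0.0562) and with total counts. STEAP4 (0.69 ± 0.13, adjusted p = 1.7e-05) and STEAP2 (0.47 ± 0.028, adjusted p = 6.98e-17) were higher at day 5. SLC45A3 was lower (-0.54 ± 0.036, adjusted p = 1.05e-15), as were PSCA (-0.38 ± 0.067, adjusted p = 7.31e-06) and FOLH1 (-0.12 ± 0.025, adjusted p = 1.21e-04). Scaling to total counts moved the median of all genes by -0.13 in this comparison, and STEAP1, called at 0.10 ± 0.035 (adjusted p = 0.0147), was then at -0.030 (adjusted p = 0.446).

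**Figure D5:**
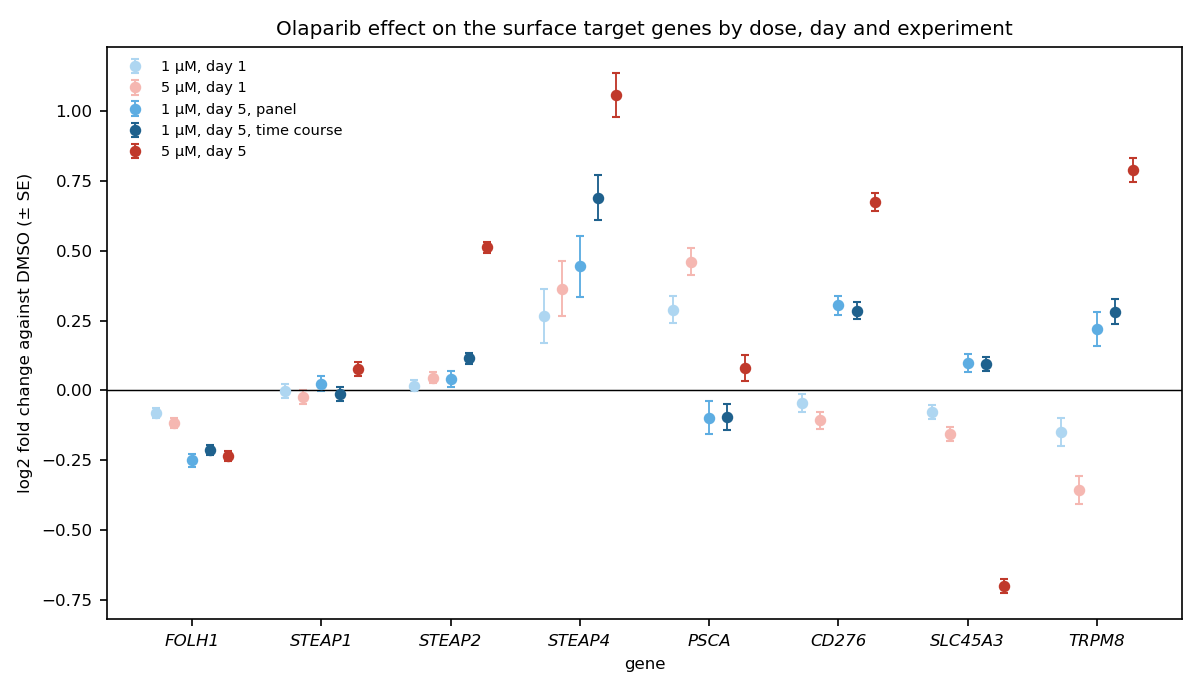
Log2 fold change of each gene with olaparib against DMSO of the same day and experiment (± SE), by dose, day and experiment. TRPM8 and CD276 lay below 0 at day 1 and above it at day 5. The points at 1 µM and day 5 from the panel and the time course lay furthest apart for STEAP4, at 0.44 and 0.69.

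Olaparib at 1 µM for 5 days was run in both experiments, each with DMSO libraries of its own. The log2 fold changes in the panel and in the time course were -0.25 and -0.21 for FOLH1, 0.31 and 0.28 for CD276, 0.22 and 0.28 for TRPM8 and 0.10 and 0.10 for SLC45A3. They were 0.44 and 0.69 for STEAP4, 0.04 and 0.12 for STEAP2, -0.10 and -0.09 for PSCA and 0.02 and -0.01 for STEAP1. In a joint fit of 39 libraries, edgeR called none of the 8 differences and DESeq2 0, while 1.94% of all genes were called (1.03% higher and 0.913% lower). Before adjustment, 1 of the 8 was under 0.05 in edgeR, STEAP2 with a difference of 0.09 ± 0.037 (adjusted p = 0.257). The 95% interval of the difference ran from -0.0045 to 0.52 for STEAP4, the widest of the 8, and from -0.0044 to 0.11 for FOLH1.

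Relatives of the 8 genes were followed as a list of 24 symbols, of which 18 gene IDs were tested in the panel and 17 in the time course. With abiraterone, 7 rose, 4 fell and 7 were not past the threshold, with a median log2 fold change of 0.25 where that of all genes was 0.00 and 52.9% of all genes were called. With enzalutamide, the counts were 6, 4 and 8 (median 0.26 against 0.02, and 53.3% of all genes called). Among those at 10 CPM or more, the largest changes were of NAALADL2, which resembles FOLH1 (1.26 ± 0.048 with abiraterone and 0.91 ± 0.049 with enzalutamide), LY6E, of the family of PSCA (-0.55 ± 0.037 and -0.50 ± 0.037), STEAP3, a ferrireductase of endosomes (0.44 ± 0.050 with abiraterone), and TRPM2, a cation channel (-0.73 ± 0.055 with enzalutamide). With olaparib 5 rose and 1 fell (35.6% of all genes were called), and with talazoparib 4 rose and 1 fell (33.8%).

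In the combinations, 5 relatives rose and 5 fell with abiraterone plus olaparib (62.2% of all genes were called), and 8 rose and 5 fell with enzalutamide plus talazoparib (62.4%). NAALADL2 reached 1.70 ± 0.047 and 1.49 ± 0.047, and STEAP3 1.04 ± 0.048 and 0.74 ± 0.048. In the time course, 5 rose and none fell at 1 µM and day 1 (15.8% of all genes were called), and 8 rose and 2 fell at 5 µM and day 1 (45%). STEAP3 rose most there, by 0.43 ± 0.039 and 1.15 ± 0.037. At day 5, 5 rose and 1 fell at 1 µM (46.3%), and 8 rose and 4 fell at 5 µM (68.2%). NAALADL2 was at 0.76 ± 0.050 and LY6E at -0.58 ± 0.036 at the higher dose.

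Other surface proteins that are targets in cancer formed a list of 35 symbols, of which 24 were tested. With abiraterone 11 rose and 6 fell, with enzalutamide 11 and 4, with olaparib 10 and 1, and with talazoparib 9 and 2, where 52.9%, 53.3%, 35.6% and 33.8% of all genes were called. The medians were 0.20, 0.34, 0.13 and 0.19, where those of all genes lay between 0.00 and 0.02. CD24, a mucin-like protein with near-identical gene copies whose counts are therefore uncertain, was at 2.89 ± 0.10 with abiraterone and 2.32 ± 0.11 with enzalutamide. The receptor MET rose (1.68 ± 0.070 and 1.43 ± 0.070), and KLK2, a kallikrein, fell (-2.003 ± 0.042 and -2.85 ± 0.045). With the combinations, 15 rose and 6 fell (62.2% of all genes were called) and 16 rose and 6 fell (62.4%), and ALCAM, an adhesion molecule, was at 1.97 ± 0.029 with abiraterone plus olaparib.

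In the time course, 4 of the 24 other targets rose and 3 fell at 1 µM and day 1 (15.8% of all genes were called), and 7 rose and 5 fell at 5 µM and day 1 (45%). At day 5, 13 rose and 3 fell at 1 µM (46.3%), and 15 rose and 7 fell at 5 µM (68.2%), where the median was 0.44 against -0.01 over all genes. ROR1, a receptor tyrosine kinase-like protein, rose by 0.99 ± 0.065 and 1.97 ± 0.060 at day 5, and NECTIN4, an adhesion molecule, by 1.49 ± 0.067 at 5 µM. MET fell at day 5 (-1.15 ± 0.071 and -1.89 ± 0.079). At 1 µM and day 5 the panel gave 0.43 for ROR1 and -0.67 for MET, and the difference between experiments was called for both (0.58, adjusted p = 0.00191, and -0.47, adjusted p = 0.0125).

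Some reads of FOLH1 and STEAP1 could belong to copies. Of the stretches of 31 bases in FOLH1 transcripts, 27.7% also lie in FOLH1B, and 34.5% of those of STEAP1 lie in STEAP1B. The copies held few counts, 48 to 123 per library for FOLH1B and 10 to 58 for STEAP1B. This was at most 0.501% of the counts of FOLH1 with its copy and 0.795% of those of STEAP1. The antisense gene STEAP2-AS1 overlaps STEAP1 and STEAP2 and held 3 to 19 counts per library. Summing each pair with its copy changed no call.

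As a description over the 21 panel libraries, which share groups and scaling, the genes most like each of the 8 were sought by Pearson correlation of log2 CPM. SLC45A3 was most like ELL2 (r = 0.999), ASRGL1 and ACSL3. STEAP4 was most like ASRGL1 (0.99), PTPN21 and ANKH, and SLC45A3 and STEAP4 had r = 0.99 with each other. TRPM8 was most like CAB39L (0.98), GPR158 and H3C10, and PSCA most like ACADL (0.99), ABCC4 and ZNF385B. FOLH1 was most like CCDC59 (0.99), RIMS1 and NCAM2, with r = -0.95 to SLC45A3. Among the genes most like STEAP2 were NFAT5 (0.97) and CHD6. CD276 was most like PTPRF (0.99), ZMIZ2 and CDH1, and STEAP1 most like RPL3 (0.94), POLR1D and GRAMD2B. Over all 39 libraries, centred on DMSO of the same experiment and day, RPL3 ranked 1759 and GRAMD2B 1875 for STEAP1, H3C10 2556 for TRPM8, ZMIZ2 191 for CD276 and NFAT5 164 for STEAP2, and the other genes named ranked 49 or better.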

How the data were processed

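RNA of C4-2B cells was sequenced in 39 libraries. The authors trimmed reads with Trim Galore, mapped them with STAR (GRCh38, GENCODE genes) and quantified genes with Salmon. The table the authors deposited holds these estimated counts, not normalized, as whole numbers. How they were rounded is not given in the sources used here. Symbols came from an earlier GENCODE release: 62666 of 63187 IDs matched, and the 521 others held 0.120% of counts. Differences were tested in R 4.3.3 with edgeR 4.0.16 (TMM, filterByExpr by group, robust quasi-likelihood tests, Benjamini-Hochberg adjustment over 18625 genes in the panel, 18502 in the time course and 19392 in the joint fit). All groups of an experiment shared 1 fit without covariates. The threshold was an adjusted p under 0.05, and 24 comparisons were made. Intervals of 95% are 1.96 SE on either side. TPM were computed from the counts and the length of the canonical transcript.

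The members and lists were chosen with earlier results of these data known. Some genes of the other lists are not reported here. All 8 members are named, and of the relatives and other targets, in each comparison, only genes among the 3 with the largest change past the threshold and at least 10 CPM in the higher group. The panel olaparib value of MET, given beside the difference between experiments, is an exception. Reference and marker genes are named from fixed lists, whatever their values. Likeness used log2 CPM (prior count 2) of genes with a mean of at least 5 CPM. On simulated counts of 18577 genes for abiraterone against DMSO, 46 of 66 genes changed by 0.5, 64 of 67 changed by 1 and 67 of 67 changed by 2 (log2) were called, with 2 unchanged genes. Alternatives were RLE and total count scaling, other filters on low counts, DESeq2 1.42.0, fits of only the groups compared, copies summed, a fold threshold, a replicate block and leaving out each library.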

Additional observations from a re-analysis of the deposited data

Results flagged for a closer look

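The results listed here are those in which the effect of olaparib differed between day 1 and day 5 by the interaction term, as log2 differences (day 5 minus day 1). At 1 µM these were -0.13 for FOLH1, 0.33 for CD276, 0.42 for STEAP4, 0.43 for TRPM8, 0.10 for STEAP2, 0.17 for SLC45A3 and -0.38 for PSCA. At 5 µM they were -0.12 for FOLH1, 0.78 for CD276, 0.69 for STEAP4, 1.14 for TRPM8, 0.47 for STEAP2, -0.54 for SLC45A3, 0.10 for STEAP1 and -0.38 for PSCA. The DMSO libraries of the days also differed, and DMSO enters each difference. The 1 µM difference of STEAP4 was 0.29 without DMSO day 1 replicate 3 (adjusted p = 0.0932), and the 5 µM difference of STEAP1 was 0.078 without DMSO day 1 replicate 1 (adjusted p = 0.0603) and -0.030 with total count scaling. The 1 µM difference of STEAP2 was 0.051 with total count scaling (adjusted p = 0.147). No explanation was tested.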

How the results depend on the processing

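Where a change of 1 or more on the log2 scale, in either direction, was also required, the called members against DMSO were 3 with abiraterone, 4 with enzalutamide, 2 with abiraterone plus olaparib, 3 with enzalutamide plus talazoparib, 1 with olaparib at 5 µM and day 5, and 0 with either PARPi alone and in the other olaparib groups. They were 0 for abiraterone plus olaparib against abiraterone, 2 against olaparib, 1 for enzalutamide plus talazoparib against enzalutamide, 3 against talazoparib, 1 for enzalutamide against abiraterone, 0 for talazoparib against olaparib, 0 and 1 for the interactions of the combinations, 0 for DMSO over the days and 5 µM against 1 µM, and 0 and 1 for the day differences at 1 and 5 µM. Without the fold rule, the count of members past the adjusted p on leaving out a library ranged from 3 to 6 for talazoparib (3 without DMSO replicate 3), 1 to 3 for talazoparib against olaparib (1 without olaparib replicate 1 or talazoparib replicate 2 or 3) and 2 to 4 for olaparib at 1 µM and day 1 (2 without olaparib replicate 1). No other count without the fold rule moved by over 1.5 times, and counts with both the fold rule and a library left out were not made. The fold rule was met by 10.5% of all genes with abiraterone, 11.1% with enzalutamide, 14.5% and 13.9% with the combinations and 16.4% with olaparib at 5 µM and day 5, by 2.7% and 2.49% with olaparib and talazoparib in the panel, and by 0.638% to 3.99% in the other olaparib groups. It was met by 1.91% and 11.3% for abiraterone plus olaparib against its drugs, 2.38% and 11.5% for enzalutamide plus talazoparib against its drugs, 1.23% and 0.0913% between the ARPi and between the PARPi, 0.73% and 0.741% for the interactions, 0.795% for DMSO over the days, 1.55% and 6.67% between the doses and 2.34% and 12.1% for the day differences.

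Of the 192 values (8 genes in 24 comparisons), DESeq2 gave no adjusted p for 1 and left 187 on the same side of the threshold with the same sign, RLE scaling 190, a filter of at least 1 CPM in 3 libraries 184, no filter 180, fits of only the groups compared 181 and total count scaling 165. Of the values that turned sign, the main result had called STEAP1 at 5 µM, at day 5 (0.08) and in the day difference (0.10). None of the others was called. The signs that turned were on values of about 0.10 or less in size, and the cause was not tested. With total counts these were CD276 in enzalutamide against abiraterone (-0.0023), PSCA with olaparib at 5 µM and day 5 (-0.0033), STEAP4 for talazoparib added to enzalutamide (-0.0018), and STEAP1 with olaparib in the panel (-0.016), at 1 µM and day 1 (0.024), at 5 µM and day 1 (0.026), at 5 µM against 1 µM at day 1 (0.0012), at 5 µM and day 5 (-0.0048) and in the day difference at 5 µM (-0.030). STEAP1 at 1 µM and day 1 also turned with the 1 CPM filter (0.0039), no filter (0.0026) and only the groups compared (0.0066), and with copies summed in enzalutamide against abiraterone (0.0015). In talazoparib against olaparib, TRPM8 turned with the 1 CPM filter (0.0015), no filter (0.0052) and only the groups compared (0.0026), and SLC45A3 with no filter (0.0022) and only the groups compared (0.00016). The interaction of enzalutamide and talazoparib for SLC45A3 turned with no filter (-0.00052) and with the replicate block (-0.0015).

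On leaving out a library, 1298 values kept sign and side, 52 lost and 7 gained a call, and 35 turned sign. Signs turned for uncalled values, with ranges, in the difference between experiments, of -0.031 to 0.025 for CD276, -0.035 to 0.059 for PSCA, -0.0041 to 0.039 for SLC45A3 and -0.040 to 0.0069 for STEAP1. The interaction of enzalutamide and talazoparib ranged from -0.042 to 0.037 for CD276 and -0.064 to 0.057 for SLC45A3. PSCA with talazoparib ranged from -0.068 to 0.013, and talazoparib against olaparib from -0.019 to 0.017 for SLC45A3 and -0.0099 to 0.013 for TRPM8. STEAP4 for talazoparib added to enzalutamide ranged from -0.096 to 0.22. STEAP1 ranged from -0.012 to 0.016 in enzalutamide against abiraterone, -0.00028 to 0.046 with olaparib in the panel, -0.026 to 0.021 at 1 µM and day 1, -0.024 to 0.00030 at 1 µM and day 5 and -0.035 to 0.012 in the day difference at 1 µM.

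The replicate numbers did not pair the libraries. Same-numbered libraries had deviations with a mean correlation of -0.0063 in the panel and -0.0060 in the time course, and 3 of 21 and 3 of 18 libraries correlated best with their own number. A replicate block moved no count of members by over 1.5 times and added 1 call, STEAP2 with olaparib at 5 µM and day 1 (0.045, adjusted p = 0.0499). Depth limited STEAP4 and TRPM8 most, which held 16 to 39 counts with an ARPi and 41 to 92 counts with enzalutamide.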
